A study of Homo sapiens with 4 samples.

Results

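Young L1 elements are the copies of the LINE-1 (L1) retrotransposon whose family name begins with L1HS or L1PA. They were taken from a table of transposable element (TE) counts in which each entry joins a family, a position number and a locus number. The name rule found 14 families, 27 classes, a class being a family at a position number, and 2851 loci, out of 655 families, 1383 classes and 261609 loci in the whole table. All 14 family names end in 5end or 3end, and L1HS occurred only as L1HS_5end. No locus belonged to more than 1 family.

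L1 is the retrotransposon that still copies itself in the human genome. A full-length copy carries its own RNA polymerase II promoter in its 5′ end and encodes ORF1p, an RNA-binding protein, and ORF2p, an endonuclease and reverse transcriptase. L1HS is the human-specific subfamily that holds the mobile copies, and the L1PA subfamilies are its primate-specific forerunners, older as their number grows. In somatic cells DNA methylation and repressive chromatin keep the L1 promoter silent, and loss of methylation at single copies is known from tumours.

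The libraries were 5′ single-cell RNA-seq of 2 human cancer lines, H1299 (non-small cell lung cancer, in RPMI medium) and HCT116 (colorectal cancer, in McCoy's medium), both at passage 5 to 10. Each line was given the solvent DMSO, or the DNA methyltransferase inhibitor DAC (decitabine, 500 nM, 72 h) together with the histone deacetylase inhibitor SB939 (500 nM, 18 h), with medium and compounds renewed every 24 h. The groups are called control (DMSO) and treated (DAC+SB) here. There was 1 library per line and treatment, so no difference has a replicate check and no test was made.

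Levels are given in CPM, counts scaled to a library total of 1000000 gene and TE counts. Ratios are treated over control, and the logarithm to base 2 is called the log2 ratio or log2 change. Brackets hold exact 95% intervals that cover counting error only, Poisson for levels, Clopper-Pearson for shares and conditional binomial for ratios. A class was never listed in a library with fewer than 20 counts, and the count of an unlisted class in that library is unknown. Totals of young L1, of a family or per cell sum the listed classes, so an unlisted class adds nothing to them, and the main ratios are also given for the classes that control and treated cells both list.

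The libraries held 3578 to 4327 cells each. Their summed gene and TE counts were 64524196 (control H1299), 62428673 (treated H1299), 62639099 (control HCT116) and 38927267 (treated HCT116), and the library with the lowest total, treated HCT116, also had the most cells above 25% mitochondrial counts, 1086 of 4327. Between 60 and 71 cells per library carried a cell barcode that another library held too. The HCT116 markers, 10 epithelial genes, summed to 198 and 96.9 CPM in control and treated HCT116, against 0.465 and 20.6 CPM in H1299. The 8 mesenchymal H1299 markers summed to 3118 and 1637 CPM in control and treated H1299, against 758 and 449 CPM in HCT116. Single markers were not compared.

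Young L1 counts were several-fold higher with treatment in both lines. H1299 had 3251 young L1 counts without treatment, 50.4 CPM (48.7 to 52.1), and 14306 with treatment, 229 CPM (225 to 233). HCT116 had 1852 counts without treatment, 29.6 CPM (28.2 to 30.9), and 5612 with treatment, 144 CPM (140 to 148). Both control libraries lay below both treated libraries.

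The ratio was 4.55 in H1299 (4.38 to 4.73), or 2.19 on the log2 scale, and 4.88 in HCT116 (4.63 to 5.14), or 2.29. Part of this came from classes listed only with treatment, which held 2698 counts in H1299 and 2192 in HCT116. Classes listed only without treatment held 182 and 261. Over the 5 classes listed in both H1299 libraries the ratio was 3.91, and over the 6 listed in both HCT116 libraries it was 3.46.

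Young L1 was higher in H1299 than in HCT116 under both treatments. The H1299 level was 1.70 times the HCT116 level without treatment (1.61 to 1.81) and 1.59 times with treatment (1.54 to 1.64). These totals hold classes listed in 1 line only. Over the classes listed in all 4 libraries, positions 1 and 65 of L1HS_5end, the H1299 level was 2.54 times (2.35 to 2.74) and 2.43 times (2.33 to 2.53) the HCT116 level.

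The TE total, of which LTR12 and Alu elements made up most in the treated libraries, was higher by more. All TE together had log2 ratios of 3.96 in H1299 and 4.12 in HCT116, and the LTR12 long terminal repeats had 6.66 and 5.91. Young L1 therefore made up less of the TE counts with treatment, 2.54% without treatment and 0.741% with treatment in H1299, and 0.926% and 0.259% in HCT116. Divided by TE counts in place of all counts, the young L1 log2 ratio was -1.78 in H1299 and -1.84 in HCT116.

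Within L1 the order was the opposite. Older L1 is used here as a label for all other names beginning with L1. It is no strict split by age, since it holds the L1P1 names. L1P1_orf2 entries had locus numbers next to those of L1HS_5end loci 1186399, 3833395 and 4207412. The older L1 went from 826 to 955 CPM in H1299, a log2 change of 0.21 (0.19 to 0.23), and from 469 to 1227 CPM in HCT116, a log2 change of 1.39 (1.37 to 1.41). In the classes that control and treated cells of a line both list, older L1 was at -0.02 (-0.04 to -0.01) in H1299, so its sign turned, and at 0.99 (0.97 to 1.02) in HCT116, against 1.97 and 1.79 for young L1. The young names held 5.75% of all L1 counts without treatment (5.56 to 5.95) and 19.4% with treatment (19.1 to 19.6) in H1299. In HCT116 they held 5.94% (5.68 to 6.20) and 10.5% (10.3 to 10.8). Young L1 was thus a larger share of L1 counts in both treated libraries, and more so in H1299.

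L1HS_5end held most young L1 counts in 3 of the 4 libraries and was the family with most counts in all of them. The lowest-numbered L1PA family listed was L1PA7_3end, and L1HS_5end had counts at 1564 loci in treated H1299. Whether this name also holds 5′ ends of L1PA subfamilies with lower numbers was not tested, so its counts may not all be human-specific copies. It had 2408 counts in control H1299, 11924 in treated H1299, 922 in control HCT116 and 3921 in treated HCT116. These are 37.3, 191, 14.7 and 101 CPM. The L1HS_5end ratio was 5.12 in H1299, a log2 change of 2.36 (2.29 to 2.42), and 6.84 in HCT116, a log2 change of 2.77 (2.67 to 2.88). Over the positions listed in both libraries of a line the log2 ratios were 2.24 (2.17 to 2.30) and 2.30 (2.19 to 2.41), and their intervals overlapped between the lines.

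**Figure D1:**
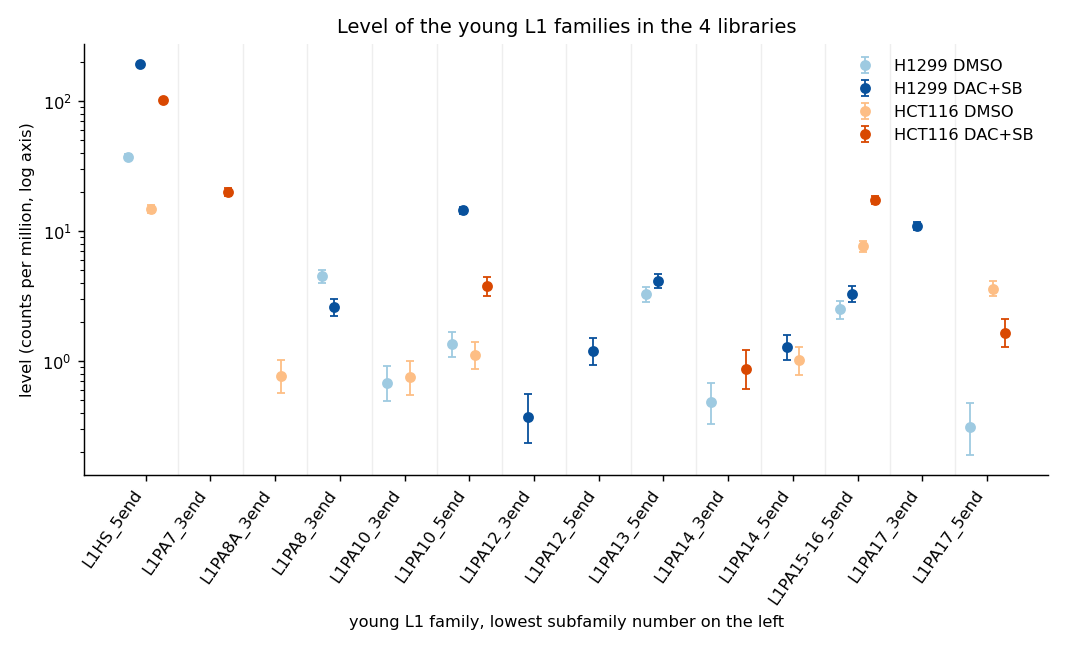
Level of each of the 14 young L1 families in the 4 libraries, in CPM on a log axis, with exact 95% Poisson intervals for counting error. Families are ordered by subfamily number, and a missing point is a family not listed in that library. L1HS_5end, at 14.7 to 191 CPM, has the highest point of each library.

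Position 1 held most L1HS_5end counts in every library. Its level was 33.1 CPM in control H1299, 164 in treated H1299, 12.1 in control HCT116 and 66.2 in treated HCT116. The log2 ratio at position 1 was 2.31 in H1299 (2.24 to 2.37) and 2.46 in HCT116 (2.34 to 2.58). What the position number stands for is not stated in the labels or the table.

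Position 65 was the other position listed in all 4 libraries. It had 271 counts in control H1299 and 757 in treated H1299, and 167 in control HCT116 and 247 in treated HCT116. Its log2 ratio was 1.53 in H1299 (1.33 to 1.74) and 1.25 in HCT116 (0.96 to 1.54). In both lines this interval lay wholly below that of position 1.

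Positions 29 and 31 were listed only with treatment. Position 29 had 939 counts in treated H1299 and 524 in treated HCT116, and position 31 had 574 in treated HCT116. The share of L1HS_5end counts at position 1 was accordingly lower with treatment. It was 88.7% (87.4 to 90) and 85.8% (85.1 to 86.4) in H1299, and 81.9% (79.2 to 84.3) and 65.7% (64.2 to 67.2) in HCT116. Over positions 1 and 65 alone, the order turned: position 1 then held 93.1% with treatment in H1299 and 91.3% in HCT116.

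The counts at positions 29 and 31 came partly from loci also counted at position 1 in the same library. In treated H1299, 314 of 432 loci at position 29 had a count at position 1, which is 72.7% of them and 23.2% of the 1353 position 1 loci. In treated HCT116 the same held for 153 of 344 loci at position 29, 44.5%, and for 158 of 337 at position 31, 46.9%.

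**Figure D2:**
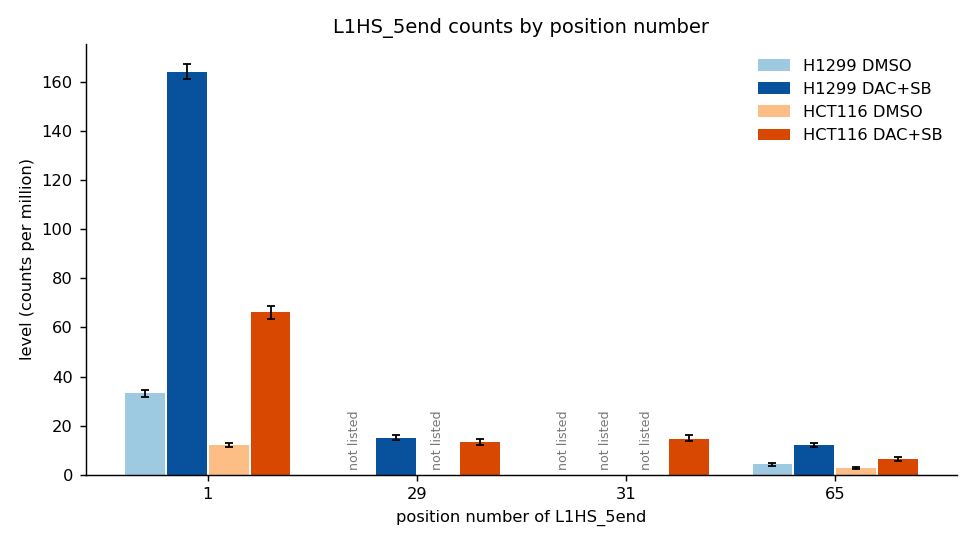
Level of L1HS_5end by position number in the 4 libraries, in CPM. Bars start at 0 and carry exact 95% Poisson intervals, and a position not listed in a library is marked. Position 1 reaches 164 CPM in treated H1299 and 66.2 CPM in treated HCT116, above 33.1 and 12.1 CPM without treatment.

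The L1HS_5end counts were spread over many loci, and over far more of them with treatment. How reads that match more than 1 L1 copy were placed is not known here. The locus numbers, in this and the later paragraphs, are taken as deposited, and their accuracy was not tested. To compare libraries of different depth, each was thinned once by a random draw to 38927267 counts, the total of the shallowest. Position 1 counts then came from 273 loci in control H1299, 1165 in treated H1299, 132 in control HCT116 and 847 in treated HCT116.

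The control counts were also more concentrated. The 10 loci with most counts held 31.2% of position 1 counts in control H1299 (28.6 to 33.8) and 42.1% in control HCT116 (37.7 to 46.7). They held 11% in treated H1299 (10.2 to 11.8) and 16% in treated HCT116 (14.6 to 17.4). The 100 loci with most counts held 82.6% and 93.4% without treatment, and 41.4% and 46.8% with treatment. These shares also depend on the number of position 1 counts, which still differed. With every library thinned to 755 position 1 counts, the number in control HCT116, the 10 highest loci held 29.8% in control H1299, 11.3% in treated H1299, 42.3% in control HCT116 and 17.4% in treated HCT116. The counts then came from 209, 422, 160 and 407 loci in that order, so that both contrasts kept their direction and the number of loci differed less.

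**Figure D3:**
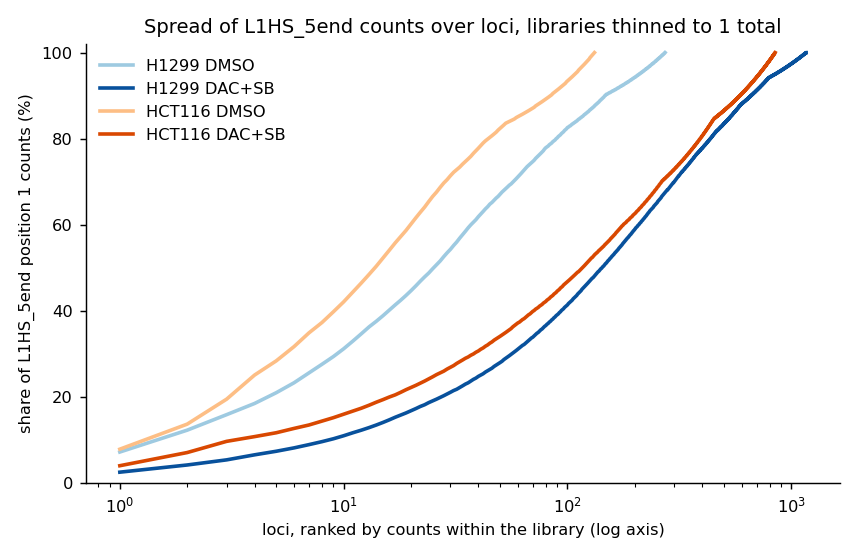
Cumulative share of L1HS_5end position 1 counts (%) against the number of loci, ranked by their counts within each library on a log axis, after each library was thinned to the same total of gene and TE counts. The 10 highest loci hold 31.2% and 42.1% of the counts in the control libraries of H1299 and HCT116, and 11% and 16% in the treated libraries.

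Most treated counts lay at loci without a count in the control library of the same line. In the thinned libraries, 235 loci had a position 1 count in both H1299 libraries, 86.1% of the control loci and 20.2% of the treated loci. These shared loci held 35.5% of the treated counts (34.3 to 36.7), and the other 4106 counts were at loci without a control count. In HCT116, 90 loci were shared, 68.2% of the control loci and 10.6% of the treated loci, and they held 13% of the treated counts (11.7 to 14.3). A locus without a count in a library may still have been transcribed below this depth, and the treated libraries had more position 1 counts. Over all TE, too, more loci had a count with treatment. Before thinning these were 18998 (control) and 131003 (treated) in H1299, and 40026 and 165263 in HCT116. Young L1 had 593 and 2073 loci in H1299, and 343 and 1591 in HCT116. The overlap over all TE loci was not computed, so the pattern is not shown to be particular to L1HS_5end.

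Many loci were counted in both lines. The treated lines shared 633 position 1 loci, 54.3% of the H1299 and 74.7% of the HCT116 loci, which held 78.0% and 87.4% of the counts. The control libraries shared 55 loci, 20.1% of the H1299 and 41.7% of the HCT116 loci, with 27.6% and 68.7% of the counts. The shared loci were thus a larger share of each treated list than of the control list of that line, but the treated lists are longer, which was not adjusted for.

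Summed over the loci with most control counts, the treated level was near the control level in H1299 and lower in HCT116. In H1299, 20 loci had at least 20 position 1 counts without treatment, and they summed to 945 counts without treatment and 1041 with treatment, a log2 change of 0.19. Of these, 9 were at a higher level with treatment, and 1 was at least 4-fold higher. The latter, locus 5857490, held 52 and 255 of the counts, so the sign of the summed change depends on it. The median log2 ratio of the 20 loci was -0.01. In HCT116, 9 such loci summed to 300 and 88 counts, a log2 change of -1.08, and 1 of them was at a higher level with treatment.

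Loci chosen the other way showed the other side of the distribution. In H1299, 125 loci had at least 20 position 1 counts with treatment, and 59 of these had none without treatment. In HCT116, 9 loci reached 20 counts with treatment, and 7 of these had none without treatment. Both choices use the counts that are compared, so these values describe the libraries and support no test.

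**Figure D4:**
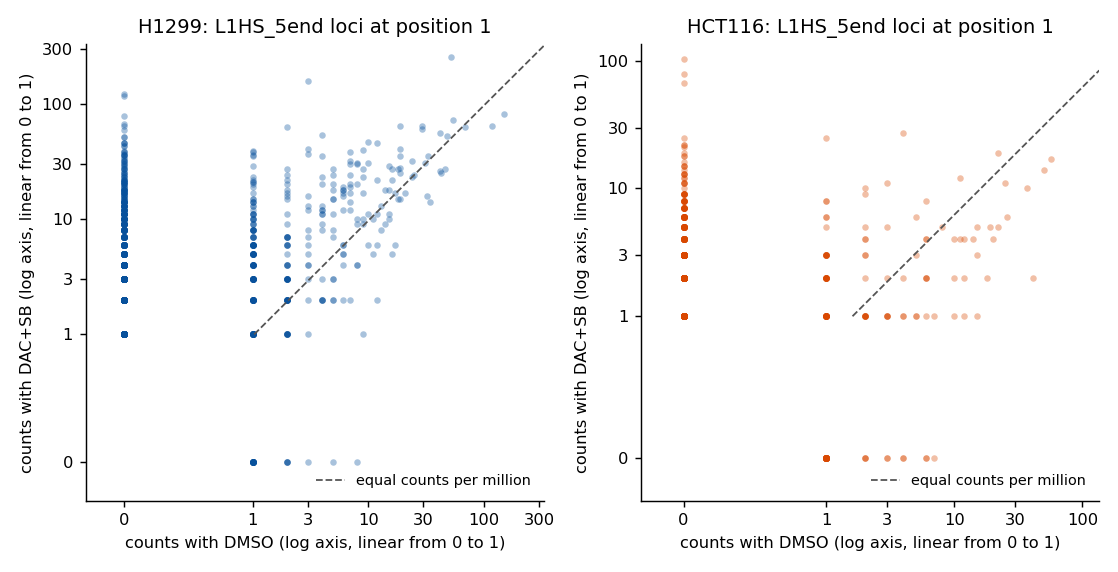
Counts of each L1HS_5end locus at position 1 in control and treated cells, in H1299 and in HCT116, on log axes that are linear from 0 to 1. The dashed line marks equal CPM. The column at 0 on the x axis holds the loci without a control count, and the loci with at least 20 control counts lie on both sides of the line in H1299 (9 of 20 above it, 945 against 1041 counts in sum) and mostly below it in HCT116 (1 of 9 above it, 300 against 88).

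Young L1 loci were also counted by a threshold of 4-fold. Loci entered when their higher library had at least 20 counts, over classes listed in both libraries. On this basis 94 of 140 young L1 loci in H1299 were at least 4-fold higher with treatment, 67.1%, against 80.0% of all 3220 TE loci. Of these 94, 58 had no control count. In HCT116, 11 of 25 young L1 loci were at least 4-fold higher, 44.0%, against 90.2% of all 6950 TE loci, and 9 of the 11 had no control count. A locus without a control count enters only through its treated count and is then past 4-fold by construction. Among loci with a control count, 36 of 82 young L1 loci in H1299 were at least 4-fold higher, 43.9%, against 43% of all TE loci, and in HCT116 2 of 16, 12.5%, against 79.1%. This subset keeps part of the problem. A locus with few control counts that enters through its treated count is also past 4-fold by construction.

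At least 4-fold lower were 0 of 140 young L1 loci in H1299, against 0.932% of all TE loci, and 1 of 25 in HCT116, against 0.403%. The median log2 ratio of the tested young L1 loci was 2.92 in H1299, against 4.19 for all tested TE loci, and 0.55 in HCT116, against 4.46. A locus at 0 was set to 3 counts for these values. Among loci with a control count the medians were 1.78 for young L1 and 0.91 for all TE in H1299, the opposite order, and -0.60 and 4.39 in HCT116. All these medians depend on how loci entered, so their order describes the tested loci only. L1HS_5end supplied 133 of the 140 loci and 92 of the 94 higher ones in H1299, and 21 of the 25 and all 11 higher ones in HCT116.

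The L1HS_5end locus with most counts summed over both treated lines was locus 5857490. It had 52 counts in 47 cells of control H1299, 266 in 223 cells of treated H1299, 0 in control HCT116 and 81 in 73 cells of treated HCT116. Its counts thus came from many cells. In H1299 its log2 ratio over shared classes was 2.37 (1.94 to 2.83). In HCT116 the locus was 42.4-fold higher with its control count of 0 set to 3. Such a fold depends on the value set and is no lower bound.

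Locus 5898300 was counted only at position 1 and only with treatment. It had 122 counts in treated H1299 and 104 in treated HCT116, and 0 in both control libraries. With each 0 set to 3, it was 42.0-fold higher in H1299 and 55.8-fold higher in HCT116. Locus 1186399 was close to this, with 3 and 160 counts in H1299 and 0 and 69 in HCT116. Its log2 change was 5.78 (4.2 to 8.07) in H1299, and it was 35.9-fold higher in HCT116 with the 0 set to 3. Locus 5931555 had 120 counts in treated H1299 and 13 in treated HCT116, with 0 in both control libraries.

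The next loci were named for their control counts, a choice that by itself favours low ratios, as the choice above favours high ones. Locus 5416682, the highest L1HS_5end locus of control H1299, had 158 counts without treatment and 93 with treatment, a log2 change of -0.80 over shared classes (-1.19 to -0.41). Locus 4450166 had 121 and 75 counts, -0.72 (-1.17 to -0.29), and locus 5201462 had 69 and 70 counts, -0.02 (-0.53 to 0.49). In HCT116 these 3 loci had no control count, and 4, 6 and 22 counts with treatment.

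In HCT116 the L1HS_5end loci with most control counts were 3833395, 3168073 and 4207412. Locus 3833395 had 61 and 19 counts in control and treated HCT116, and 31 and 63 in H1299. Locus 3168073 had 50 and 14 counts in HCT116, and 20 and 36 in H1299. Locus 4207412 had 42 and 4 counts in HCT116, a log2 change of -2.71 (-4.65 to -1.24), and 57 and 64 in H1299. All 3 were therefore lower with treatment in HCT116, where they were chosen for their control counts, and none was lower in H1299.

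Without treatment every listed L1PA family was below L1HS_5end, the nearest being L1PA15-16_5end in HCT116 at 7.62 against 14.7 CPM. Listed in both libraries and holding 100 counts or more in at least 1 of them, 5 young L1 families could be compared in H1299 and 4 in HCT116. In H1299, 2 of 5 were at least 4-fold higher with treatment, against 22.6% of 186 TE families, and 0 of 5 were at least 4-fold lower, against 1.08%. In HCT116, 1 of 4 was at least 4-fold higher, against 46.7% of 199 TE families, and 0 of 4 were at least 4-fold lower, against 0.503%. L1HS_5end was among the higher ones in both lines, and L1PA10_5end was the other in H1299. The H1299 call of L1PA10_5end compares different positions, and over classes listed in both libraries only 1 family was left.

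Ordered by subfamily number, the control H1299 levels were 37.3 CPM for L1HS_5end, 4.49 for L1PA8_3end, 1.35 for L1PA10_5end, 3.25 for L1PA13_5end and 2.50 for L1PA15-16_5end. The log2 ratios in the same order were 2.36, -0.80, 3.42, 0.33 and 0.40. The control HCT116 levels were 14.7 CPM for L1HS_5end, 1.12 for L1PA10_5end, 7.62 for L1PA15-16_5end and 3.59 for L1PA17_5end, with log2 ratios of 2.77, 1.75, 1.18 and -1.13. In HCT116 the ratio thus went down at each step to a higher number, and in H1299 it did not. At positions listed under both treatments the HCT116 values were 2.30, 0.84, 0.62 and -0.24 (-0.70 to 0.20), so that L1PA17_5end was no longer clearly lower. These values still went down at each step. Without the locus with most counts of each family, the HCT116 order over all listed positions did not hold. The log2 ratios were then 2.74, 2.21, 2.46 and 1.27, the last from 2 and 3 counts. At positions listed under both treatments they were 2.25, 1.15 and 0.56 without that locus, and L1PA17_5end had no control count left.

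With L1HS set to 1, Pearson's r of the log2 ratio with subfamily number was -0.36 over the 5 H1299 families and -0.85 over the 4 HCT116 families. For the control level it was -0.83 and -0.39. The points of a line share both libraries, and they are too few to carry more than this description. Several of them rest on 1 locus, as follows.

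L1PA10_5end was the family with the highest H1299 ratio, but no position was listed in both H1299 libraries. Its 87 control counts were all at position 7, and its 899 treated counts were at positions 1 (189 counts) and 81 (710 counts). The ratio of 10.7 therefore compares different positions. In HCT116 position 7 had 70 counts without treatment and 78 with treatment, a log2 change of 0.84 (0.36 to 1.33), and position 1, listed only with treatment, had 68.

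L1PA13_5end, listed only in H1299, had 210 counts without treatment and 256 with treatment, all at position 106, a log2 change of 0.33 (0.06 to 0.60). Its locus 5728329 held 97 and 106 of these. L1PA15-16_5end had 161 and 206 counts in H1299, all at position 110, a log2 change of 0.40 (0.10 to 0.71). Both families were thus within 1.5-fold of their control level in H1299.

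In HCT116 most L1PA15-16_5end and L1PA17_5end counts came from loci with neighbouring numbers. L1PA15-16_5end had 477 counts without treatment and 671 with treatment, of which locus 3590034 held 392 and 380. Without that locus the log2 ratio was 2.46 (2.11 to 2.83), against 1.18 with it, but both values include positions 21 and 110, which were listed only with treatment. At positions 79 and 80, listed under both treatments, it was 0.62 (0.43 to 0.81) with the locus and 0.56 (0.10 to 1.02) without it, the latter from 85 and 78 counts. L1PA17_5end had 225 and 64 counts, 103 of the former at position 32, which was not listed with treatment. Locus 3590032 held 223 and 61 of the counts. Without it, 2 and 3 counts were left. L1P4d_5end locus 3590033, which is no young L1, had 205 and 176 counts. The young L1 positions that hold these counts, 79 and 80 of L1PA15-16_5end and 31 and 32 of L1PA17_5end, were not listed in H1299, so the level of these positions there is unknown. Position 110 of L1PA15-16_5end, where locus 3590034 had its other 3 treated counts, was listed in both H1299 libraries, and the locus had 0 counts there.

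The 3end families were mostly listed in 1 library of a line only. L1PA8_3end, listed in H1299, had 290 counts without treatment and 161 with treatment, a log2 change of -0.80 (-1.09 to -0.52). Locus 6341987 held 253 and 129 of them, and without it the log2 ratio was -0.16 (-0.89 to 0.56). L1PA17_3end had 683 counts in treated H1299, 587 of them at locus 5004935 in 493 cells. L1PA7_3end had 776 counts in treated HCT116, 460 of them at locus 1700967 in 395 cells. The next locus number, 1700968, is an LTR12C element with 4266 counts in control HCT116 and 60574 in treated HCT116, and in H1299, where L1PA7_3end was not listed, with 128 and 16533. Whether counts at the 2 entries come from 1 transcript was not tested.

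The remaining families stayed below 100 counts. L1PA12_5end had 74 and L1PA12_3end 23 counts, in treated H1299 only. L1PA14_5end had 80 counts in treated H1299 and 63 in control HCT116, and L1PA14_3end had 31 in control H1299 and 34 in treated HCT116. L1PA10_3end had 44 and 47 counts in the control libraries of H1299 and HCT116, and L1PA8A_3end had 48 in control HCT116. L1PA17_5end had 20 in control H1299. None of these could be compared within a line.

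L1P1_5end, the 5′ end of an L1 name outside the rule, was set beside L1HS_5end because it too was listed at position 1 in all 4 libraries. Its counts are part of the older L1 above. At position 1 it had 442 and 4019 counts in H1299, a log2 change of 3.23 (3.09 to 3.38), and 418 and 1019 in HCT116, a log2 change of 1.97 (1.81 to 2.14). L1HS_5end at position 1, with 2.31 and 2.46, was below it in H1299 and above it in HCT116. Over the whole family the H1299 order turned, since L1P1_5end was at 1.89 (1.81 to 1.96), with 0.78 and 0.81 at its positions 71 and 72, and L1HS_5end at 2.36. In HCT116 the whole-family values were 2.63 (2.47 to 2.79) for L1P1_5end and 2.77 (2.67 to 2.88) for L1HS_5end, with overlapping intervals. Both include positions listed only with treatment. Over positions listed in both HCT116 libraries they were 1.97 (1.81 to 2.14) and 2.30 (2.19 to 2.41), and these intervals did not overlap.

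Across cells, more cells had a young L1 count with treatment. Each cell was thinned to 3300 counts, which left out 402 cells of treated HCT116 and none elsewhere. A young L1 count was then found in 517 of 3578 control H1299 cells, 14.4% (13.3 to 15.6), and in 1791 of 3726 treated cells, 48.1% (46.5 to 49.7). In HCT116 it was found in 329 of 3658 control cells, 8.99% (8.09 to 9.97), and in 1424 of 3925 treated cells, 36.3% (34.8 to 37.8). In the classes that both treatments list, the H1299 shares were 13.5% (control) and 41.5% (treated), and the HCT116 shares were 8.12% (control) and 23.5% (treated).

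Without thinning, 48.7% and 87.3% of H1299 cells and 35.1% and 61.8% of HCT116 cells had a count, at median depths of 17370, 15784, 16258 and 8449 counts per cell. L1HS_5end alone was counted in 10.6%, 42.2%, 4.89% and 26.7% of the thinned cells in the same order of libraries. How many of these counts came from free RNA was not measured, since every cell carries L1 and no L1-free reference exists in the data.

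The thinned counts per cell were low and somewhat more variable than a Poisson count. The mean was 0.163 in control H1299, 0.746 in treated H1299, 0.0965 in control HCT116 and 0.510 in treated HCT116, and the variance divided by the mean was 1.09, 1.34, 1.05 and 1.3. Cells without a count made up 51.9% of treated H1299 cells, where a Poisson count of the same mean gives 47.4%, and 63.7% of treated HCT116 cells, where it gives 60.1%. The highest count in a thinned cell was 9 with treatment and 3 without treatment.

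**Figure D5:**
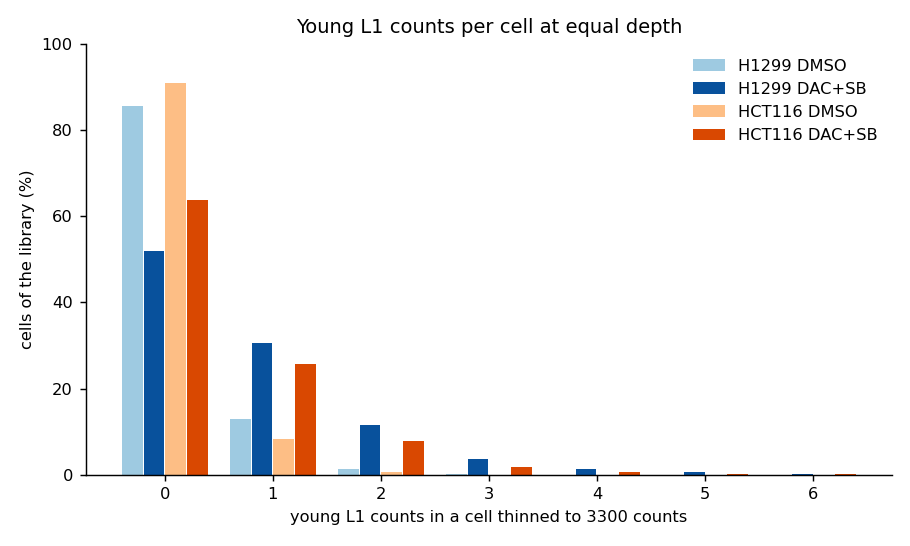
Share of cells (%) by number of young L1 counts after thinning every cell to 3300 counts, for the 4 libraries, shown up to 6 counts. Bars start at 0. Cells with at least 1 count make up 14.4% and 8.99% of the control cells and 48.1% and 36.3% of the treated cells of H1299 and HCT116.

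Counts within a cell were mostly assigned to different loci, with the placing of reads among similar copies unknown. Of the treated H1299 cells with at least 2 L1HS_5end counts before thinning, 1791 of 2342 (76.5%) had every count at a different locus, and in treated HCT116 this was so for 760 of 948 (80.2%). Without treatment it was 409 of 572 (71.5%) and 78 of 145 (53.8%). The cell with most L1HS_5end counts, in treated H1299, had 38 counts over 37 loci. Across thinned cells, Pearson's r of the young L1 count with older L1, LTR12 and Alu counts lay between 0.01 and 0.15 in the 4 libraries, too weak in counts this sparse to be read as a relation.

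Genes that act on L1 were mostly lower or within 2-fold with treatment. Of 46 genes in 5 lists, 39 had at least 100 counts in an H1299 library, and 2 of them were at least 2-fold higher, against 18.3% of all 14610 genes, and 6 at least 2-fold lower, against 7.34%. In HCT116, 38 had at least 100 counts, and 3 were at least 2-fold higher, against 16.2% of all 13539 genes, and 14 at least 2-fold lower, against 20%. The median log2 ratio of the listed genes was -0.45 in H1299, against -0.07 for all genes, and -0.65 in HCT116, against -0.23.

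The clearest difference was L1TD1, a gene that arose from the ORF1 of an ancient L1 (chromosome 1, 62194831 to 62212328 on the plus strand in GENCODE v29 on GRCh38, matched by symbol). It had 0 and 287 counts in control and treated H1299, and 3 and 129 in HCT116. Part of the treated counts came from a numbered feature of the gene that neither control library lists. Without it the counts were 0 and 127 in H1299, 43.8-fold higher with the 0 set to 3. The exact interval from the observed 0 begins at 5.13 on the log2 scale. In HCT116 they were 3 and 43, a log2 change of 4.53 (2.88 to 6.86).

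Of 18 L1 silencing genes, 18 had at least 100 counts in H1299 and 16 in HCT116, and none of these was at least 2-fold higher. The 2 under that minimum in HCT116 had few or no control counts, ZNF93 with 1 and 94 and ZNF649 with 0 and 46. UHRF1, which brings the maintenance methyltransferase to replicating DNA, went from 76.5 to 31.5 CPM in H1299 and from 124 to 28.3 CPM in HCT116, log2 ratios of -1.28 (-1.36 to -1.21) and -2.13 (-2.22 to -2.04). HELLS, a chromatin remodeler needed for DNA methylation of repeats, was at -1.04 and -1.11. DNMT1, the maintenance methyltransferase itself, was at -1.08 in H1299 and -0.62 in HCT116. DNMT3A, a de novo methyltransferase, was at -1.64 in HCT116 and -0.29 in H1299, and FAM208A (TASOR), a subunit of the HUSH silencing complex, at -1.01 and -0.61.

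Of 12 genes that restrict L1 in the cytoplasm, 6 had at least 100 counts in H1299 and 8 in HCT116. BST2, an interferon-inducible membrane protein, was the higher one in both lines, with 114 and 520 counts in H1299, a log2 change of 2.24 (1.94 to 2.54), and 163 and 338 in HCT116, 1.74 (1.46 to 2.02). MOV10, a helicase found with L1 RNA, was lower in both lines, by log2 ratios of -1.06 (-1.21 to -0.91) and -2.59 (-2.84 to -2.34). ZC3HAV1 (an antiviral zinc finger protein), ADAR (an RNA-editing enzyme) and APOBEC3C (a cytidine deaminase) were at -1.59, -1.66 and -2.03 in HCT116, and at -0.75, -0.71 and -0.58 in H1299.

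Of the genes whose proteins bind the L1 promoter or work with ORF1p and ORF2p, RNASEH2C in HCT116 was the 1 at least 2-fold higher among those with at least 100 counts. Under that minimum, SOX2 had 3 and 94 counts in HCT116, and SOX11 had 0 and 10 in H1299 and 0 and 29 in HCT116. YY1, which binds the L1 5′ end, was lower, at -0.78 (H1299) and -1.58 (HCT116), and the transcription factors SP1 and CTCF were at -1.01 and -1.07 in HCT116. PABPC1, the poly(A)-binding protein found with ORF1p, was at -0.65 and -1.81. RNASEH2B, a subunit of RNase H2, was at -1.01 and -1.69, and RNASEH2C, another subunit, at 0.46 and 1.34.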

How the data were processed

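The authors deposited whole-number counts per feature and cell in 2 tables, for genes and for TE. The submitters' processing notes name CASAVA, STAR, GRCh38 and hg38 without roles. The counting tool, the TE annotation, the placing of reads that match several copies and whether counts are of unique molecular identifiers are not stated in these sources. Cell names gave the library. TE loci carry no coordinates, and no L1 sequence is printed.

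Counts were summed per library over all cells with Python 3.11.15, pandas 2.3.3, numpy 2.4.6 and scipy 1.17.1, and divided by gene plus TE counts. No doublet caller was run. Cells (to 3300 counts) and libraries were thinned by seeded hypergeometric draws. The call rule was tried on simulated Poisson counts of families with at least 100 and loci with at least 20 control counts. That simulation held no variation between libraries and did not cover loci without a control count.

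The members and gene lists were chosen with earlier results of these data known. Named were families with at least 1000 counts in a library, the 5 loci with most counts per library, the 3 highest and 3 lowest ratios per line among loci with at least 100 counts, positions with at least 5% of a family, and listed genes with at least 100 counts past 2-fold. Families below that minimum were named to account for every member. ZNF93, ZNF649, SOX2 and SOX11 did not meet the gene rule and were named in addition. L1P1_5end was chosen after its values were seen. TREX1, on the restriction list, was not listed by that name. The values of 1 listed gene are not reported here.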

Additional observations from a re-analysis of the deposited data

Results flagged for a closer look

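At 4 of the named L1HS_5end loci the ratio of DAC+SB over DMSO lay on opposite sides of 1 in the 2 lines, by exact counting intervals. Locus 3168073 had a log2 ratio of 0.85 in H1299 and -1.15 in HCT116, and locus 3833395 had 1.07 in H1299 and -1.07 in HCT116. Both were among the 5 young L1 loci with most counts in HCT116 DMSO. Locus 5416682 had -0.80 (H1299) and 1.10 (HCT116), and locus 4450166 had -0.72 (H1299) and 1.69 (HCT116). In HCT116 they had 0 counts with DMSO, set to 3 for these values, and 4 and 6 with DAC+SB. With so few counts the HCT116 side of this pair is weak: the exact intervals from the observed 0 begin at 0.09 and 0.92 on the log2 scale. Both were among the 5 with most counts in H1299 DMSO. Each locus was thus chosen for a high DMSO count in the line where its ratio was below 1. With 1 library per group, the difference between the lines was not tested.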

How the results depend on the processing

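Young L1 and L1HS_5end kept a ratio above 1 in both lines under every alternative run except division by TE counts, where young L1 was at -1.78 (H1299) and -1.84 (HCT116) on the log2 scale and L1HS_5end at -1.60 and -1.35. That division also turned the sign of L1PA10_5end (-0.54 and -2.38), L1PA13_5end (-3.63) and L1PA15-16_5end (-3.56 and -2.95). Restricted to classes that both libraries of a line list, young L1 was at 1.97 and 1.79 and L1HS_5end at 2.24 and 2.30, the same as over classes listed in all 4 libraries for L1HS_5end. As alternatives chosen after seeing the data, older L1 over classes listed in both libraries was at -0.02 and 0.99, and the young L1 level of H1299 over HCT116 in classes listed in all 4 libraries was 2.54 without and 2.43 with treatment. Without mitochondrial and ribosomal protein genes in the denominator the values were 2.25 and 2.42 (young L1) and 2.42 and 2.91 (L1HS_5end). In HCT116, the mean over cells gave 2.39 for young L1, and leaving out cells above 25% mitochondrial counts gave 2.18 for young L1 and 2.66 for L1HS_5end. Without the locus with most counts, young L1 was at 2.12 and 2.53, and L1PA17_5end in HCT116 turned to 1.27, from 2 and 3 counts.

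A minimum of 1000 counts, or classes listed in both libraries alone, left 1 family at least 4-fold higher in H1299. At a 2-fold threshold 3 families were higher and 1 lower in HCT116. A minimum of 50 counts left 12 loci (H1299) and 3 (HCT116) at least 4-fold higher and 0 lower in HCT116. At a 2-fold threshold 2 and 7 loci were lower. The shares over all TE families and loci at these settings are not given here. These counts therefore show only how the calls depend on the setting, not whether they are many or few. Over classes listed in both HCT116 libraries, 1009 young L1 loci had a count in the treated library, and a young L1 count was found in 23.5% of its cells and in 41.5% of treated H1299 cells. In unthinned cells the shares were 48.7%, 87.3%, 35.1% and 61.8% (control and treated H1299, then HCT116), and at 2000 counts 9.22%, 33.6%, 5% and 25.6%. Over positions listed in all 4 libraries, an alternative chosen after seeing the data, position 1 held 93.1% and 91.3% of treated L1HS_5end counts. With every library thinned to the same number of position 1 counts, also chosen after seeing the data, 422 and 407 loci had a count in treated H1299 and HCT116.

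The relation of the control level to subfamily number was -0.70 by Spearman and -0.95 over shared classes in H1299, and -0.80 over shared classes in HCT116. That of the log2 ratio was -0.10 and -0.58 in H1299, and -1 and -0.97 in HCT116. At a 4-fold threshold 0 of the listed genes were lower in H1299, and 1 was higher and 4 lower in HCT116, again without the share over all genes. Counting numbered gene features only where both libraries of a line list them, also chosen after seeing the data, left 2 genes higher in HCT116. Names without a suffix had 0 counts, so that alternative gave no value, and a minimum of 1000 counts left too few families for a relation to subfamily number. Where no cause is given, the cause was not tested. No paired analysis was possible because each group has 1 library. Counting depth limits the L1PA families below 100 counts and most single loci.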
